A study of Homo sapiens with 4 samples.

Results

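The nuclear genes for the protein subunits of respiratory complexes II, III and IV and of ATP synthase, together with cytochrome c, were followed in RPMI 8226 cells, an established human multiple myeloma line, after antisense treatment against CELF2. The 40 genes were taken by name, from a list chosen with earlier results of these data known. They were 4 of complex II, 9 of complex III, cytochrome c, 10 of complex IV and 16 of ATP synthase including its inhibitor. Each had 1 row among the 78932 genes counted, and all 40 passed the filter on low counts that left 19511 genes for the test.

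Both groups were transfected with an LNA ASO, an antisense oligonucleotide whose locked sugars strengthen its pairing with a target RNA, and were compared at 72 hours. The CELF2 LNA ASO group (2 libraries) received 5 nM of an oligonucleotide against CELF2, an RNA-binding protein of splicing and mRNA stability, and the Control LNA ASO group (2 libraries) received a control oligonucleotide whose dose the labels do not give. The only comparison asks which transcripts differ between these groups. Whether libraries of a group stem from separate cultures is not said in the labels: p-values reflect the spread between libraries, which may be technical or lie between oligonucleotides. Any effect of an oligonucleotide sequence beyond CELF2 cannot be told apart from that of CELF2.

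Oxidative phosphorylation moves electrons from nutrients to oxygen along protein complexes of the inner mitochondrial membrane. Complex II, the succinate dehydrogenase of the citric acid cycle, and complex I pass electrons to ubiquinone, complex III passes them to cytochrome c, and complex IV passes them to oxygen. Complexes I, III and IV pump protons, and ATP synthase lets the protons flow back through a rotating ring of subunit c to drive ATP synthesis in its F1 head. Complex II is encoded wholly in the nucleus, while complexes III and IV and ATP synthase each combine nuclear subunits with subunits made from mitochondrial DNA. Myeloma cells are malignant plasma cells, a cell type known for making and secreting much protein, work that consumes ATP.

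Nuclear genes of this machinery are known to share promoter elements for the factors NRF1, GABP (an ETS-family factor), YY1 and SP1. RefSeq promoter windows on GRCh38.p14, 250 bases before to 50 bases after a start, were matched to 32 of the 40 genes (37 windows). The other 8 were ATP5F1B, ATP5F1D, ATP5MC3, ATP5MF, COX6C, CYC1, SDHC and UQCRB. The stretches below lie upstream of the start and outside exons, are written 5′ to 3′ on the gene's strand, and have the matches in capitals. They were chosen to set a gene that fell more than 2-fold beside cytochrome c, which was not called, with the same NRF1 letters (SDHB and CYCS), to show NRF1 and ETS letters in 1 promoter (COX5B), and for the gene with the largest fall (ATP5MC1). The rest of the SDHB window, not printed, also held ETS, YY1 and CRE letters. The capitals are GCATGCGC (NRF1), CCGGAAG (ETS), GGGCGG or its complement CCGCCC (SP1), CCAAT or its complement ATTGG, and TGACGTCA, the cyclic AMP response element (CRE).
SDHB, chr1:17054171-17054282, minus strand: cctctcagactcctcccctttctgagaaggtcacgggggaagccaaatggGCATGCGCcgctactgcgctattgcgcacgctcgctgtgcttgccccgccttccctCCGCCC
COX5B, chr2:97645812-97646039, plus strand: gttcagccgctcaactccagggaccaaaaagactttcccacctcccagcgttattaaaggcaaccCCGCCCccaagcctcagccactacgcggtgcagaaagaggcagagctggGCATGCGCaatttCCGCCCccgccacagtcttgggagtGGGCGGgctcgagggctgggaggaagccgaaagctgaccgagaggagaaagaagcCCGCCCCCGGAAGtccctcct
ATP5MC1, chr17:48892678-48892764, plus strand: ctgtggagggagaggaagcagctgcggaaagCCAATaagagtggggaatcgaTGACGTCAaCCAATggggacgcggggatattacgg
CYCS, chr7:25125362-25125510, minus strand: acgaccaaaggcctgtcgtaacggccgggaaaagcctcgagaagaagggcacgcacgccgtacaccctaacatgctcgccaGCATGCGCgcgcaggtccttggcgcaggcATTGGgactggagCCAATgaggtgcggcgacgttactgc

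Counted on both strands and over whole windows, where matches of different motifs may overlap, the NRF1 letters GCATGCGC stood in 27.0% of the 37 windows and in 3.74% of the 22199 windows of all protein-coding genes. The ETS letters CCGGAAG stood in 43.2% of them against 12.8%, the YY1 letters ATGGCGG in 18.9% against 6.99%, and the CRE letters TGACGTCA in 8.11% against 2.26%. For the SP1 letters GGGCGG (54.1% against 56.3%) and for CCAAT (40.5% against 34.7%) the shares were closer. The NRF1 letters were found in 7 of the 25 matched genes that were lower with the CELF2 ASO and in 2 of the 7 that were not, cytochrome c and ATP5MC2. The median log2 fold change was -0.49 for the matched genes with the NRF1 letters and -0.50 for those without them, and for the ETS letters it was -0.72 with them and -0.45 without. With and without the letters it was -0.68 and -0.47 for YY1, -0.66 and -0.37 for SP1, and -1.08 and -0.45 for CRE, found in 3 genes. For CCAAT it was -0.475 and -0.554. Genes without a window are not in these medians. The motif counts are matches of letters in a fixed window, and no binding was measured.

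CELF2 itself was lower in both treated libraries. Its level was 127.7 and 127.6 CPM (CPM, read counts over the TMM-adjusted library size) with the control ASO and 56.4 and 48.6 CPM with the CELF2 ASO, a 2.43-fold difference (edgeR adjusted p = 2.87e-05). Total counts were 23599190 to 29161298 per library. The libraries of the CELF2 ASO group differed more from each other (biological coefficient of variation 13.7%) than the control libraries did (3.65%). The 10 plasma cell markers summed to 4473 and 5022 CPM with the control and 12340 and 11980 CPM with the CELF2 ASO, 4 of them lower and 4 higher. The immunoglobulin light chain gene IGLC2 alone had 1314 and 1650 CPM against 8486 and 8681 CPM, and the other 9 markers summed to 3159 and 3372 CPM against 3852 and 3303 CPM. The 5 T and NK cell markers summed to 1.39 to 1.87 CPM over the 4 libraries. The 5 myeloid markers summed to 4.85 and 4.93 CPM with the control and 2.41 and 2.67 CPM with the CELF2 ASO, with LYZ and FCGR3A at 0 in all libraries. The 5 stromal and epithelial markers summed to 123.3 and 120.3 CPM with the control and 86.7 and 87.0 CPM with the CELF2 ASO, 2 of them lower. Of these, EPCAM had 62.0 and 63.6 CPM against 37.6 and 30.3 CPM. KRT18 had 57.1 and 52.3 CPM against 45.9 and 51.6 CPM, and the others were each under 5 CPM. The part of these markers in the results below was not tested.

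With the CELF2 ASO, 31 of the 40 genes were lower and 2 were higher (edgeR quasi-likelihood test, Benjamini-Hochberg adjusted p under 0.05 over all genes tested), and 7 were not called. Among all genes tested, 27.9% were lower, 27.5% higher and 55.5% called in either direction, and among protein-coding genes alone 35.4% were lower and 28.0% higher. The 40 genes had a median log2 CPM of 6.73 and a median transcript of 1210 bases, against 4.40 and 3444 for protein-coding genes. These shares were not matched for level or length. At least 2-fold lower were 9 of the 40, against 11.1% of all genes and 12.2% of protein-coding genes. The median log2 fold change of the 40 genes was -0.52, where all genes tested had a median of 0.04 and protein-coding genes one of -0.05. In 35 genes both CELF2 ASO libraries lay below both control libraries, and in 2 both lay above; over all genes tested the shares were 38.4% and 41.2%. In sum the 40 genes took 8322 and 8611 CPM with the control and 5253 and 5215 CPM with the CELF2 ASO, 1.62-fold less. The groups did not overlap, and an exact two-sided permutation test over 2 against 2 libraries gives p = 0.333, the smallest it can give. Fewer cells of a type and less RNA per cell cannot be told apart in such bulk libraries.

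**Figure D1:**
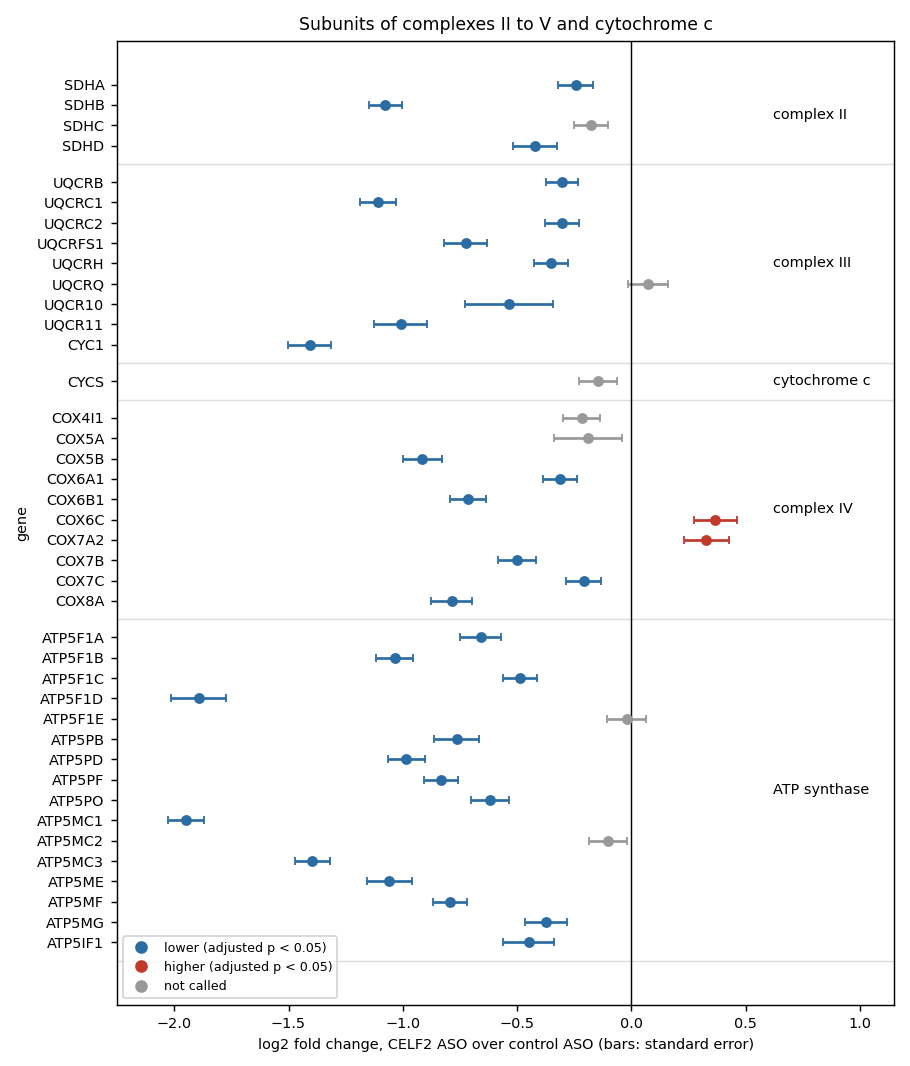
Log2 fold change (CELF2 ASO over control ASO, horizontal axis) of each of the 40 genes, ordered by complex, with bars for the standard error of the fit; blue is lower, red higher and grey not called at an adjusted p of 0.05. ATP5MC1 and ATP5F1D lie farthest to the left, and COX6C and COX7A2 are the 2 genes called on the right of 0.

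In complex II, 3 of 4 genes were lower and none was higher, and the 4 summed to 1.60-fold less. SDHB (ENSG00000117118, GRCh38 chromosome 1, 17018722 to 17054170, minus strand), the iron-sulfur subunit that carries electrons towards ubiquinone and whose promoter stretch is printed above, had the largest difference of the 4. Its level was 193 and 194 CPM with the control and 94.5 and 88.9 CPM with the CELF2 ASO. Both treated libraries were far below both controls (log2 fold change -1.08, standard error 0.07, edgeR adjusted p = 2.57e-05). SDHA, the catalytic flavoprotein, had 55.9 and 59.9 CPM against 49.6 and 48.1 CPM (log2 -0.24, edgeR adjusted p = 0.0291), a call that held in 7 of 14 alternatives and was lost with DESeq2 (adjusted p = 0.0775) and with offsets for GC content and transcript length (edgeR adjusted p = 0.0814). SDHD, a membrane anchor, had 30.8 CPM in each control library and 24.2 and 21.7 CPM with the CELF2 ASO (log2 -0.42, edgeR adjusted p = 0.00793). The other anchor, SDHC, had 48.2 and 49.8 CPM against 43.6 and 43.0 CPM, groups that did not overlap but a difference that missed the threshold (log2 -0.18, edgeR adjusted p = 0.0801). With the offsets SDHC was lower (log2 -0.52, edgeR adjusted p = 0.000576). Pseudogenes of SDHA and SDHD held counts equal to 17.4% and 13.1% of those of the genes, so both levels are uncertain.

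Complex III had 8 of 9 genes lower and none higher, with a median log2 fold change of -0.53 and a summed level 1.66-fold less. CYC1, which encodes cytochrome c1, the subunit that hands electrons to cytochrome c, fell the most. It had 425 and 416 CPM with the control and 172 and 145.5 CPM with the CELF2 ASO (log2 -1.41, standard error 0.09, edgeR adjusted p = 2.39e-05). UQCRC1, a core protein on the matrix side, had 409 and 402 CPM against 197 and 179 CPM (log2 -1.11, edgeR adjusted p = 3.03e-05). Its fellow core protein UQCRC2 fell as well, from 229.6 and 244 CPM to 191 and 193.5 CPM (log2 -0.30, edgeR adjusted p = 0.00975). In every pair of libraries across groups these 3 genes were lower with the CELF2 ASO.

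UQCRFS1, the Rieske iron-sulfur protein, had 45.8 and 50.7 CPM with the control and 27.9 and 30.5 CPM with the CELF2 ASO (log2 -0.73). Among the small subunits, UQCR11 fell 2.01-fold, from 19.9 and 19.8 CPM to 10.4 and 9.27 CPM (edgeR adjusted p = 0.000273). UQCRH, the hinge protein near cytochrome c1, had a log2 fold change of -0.35, and UQCRB, which lies near the ubiquinone site, one of -0.30. UQCR10 had few reads (3.81 and 3.27 CPM against 2.52 and 2.38 CPM) and passed the threshold narrowly (edgeR adjusted p = 0.046), a call that held in 7 of 14 alternatives. UQCRQ did not pass it, with 68.9 and 78.6 CPM in the control and 79.1 and 75.8 CPM in the CELF2 ASO libraries, groups that overlap, and 20.8% of its exon bases also belong to GDF9 on the other strand.

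Cytochrome c itself, encoded by CYCS, is the soluble carrier between complexes III and IV and a trigger of caspase activation when it leaves mitochondria. Its level was 34.8 and 34.6 CPM with the control and 31.2 and 31.4 CPM with the CELF2 ASO. The groups did not overlap, but the log2 fold change of -0.15 (standard error 0.08) missed the threshold (edgeR adjusted p = 0.168). With GC and length offsets CYCS was lower (log2 -0.31, edgeR adjusted p = 0.0104). Its promoter stretch holds the same NRF1 letters as that of SDHB, which fell 2.11-fold. The promoter windows differed otherwise: that of SDHB also held ETS, YY1, SP1 and CRE letters, and that of CYCS held CCAAT.

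In complex IV the calls went both ways: 6 of 10 genes were lower, 2 higher and 2 not called. Its summed level was 1.26-fold less, against 1.60-fold to 1.83-fold for complexes II and III and ATP synthase, and the difference between complexes was not tested. The complex II sum rested largely on SDHB, which held 193 and 194 CPM of 327 and 335 CPM with the control. Median log2 fold changes were -0.265 in complex IV, -0.33 in complex II, -0.53 in complex III and -0.78 in ATP synthase. COX5B, a matrix-side subunit, had 116 and 130.1 CPM with the control and 67.2 and 63.4 CPM with the CELF2 ASO (log2 -0.91, edgeR adjusted p = 9.41e-05). COX8A had 181.5 and 190.3 CPM against 100.1 and 115.6 CPM (log2 -0.79), although 34.5% of its exon bases are shared with another gene on its strand. COX6B1, on the intermembrane side near cytochrome c, had 214 and 199.7 CPM against 122 and 130.1 CPM (log2 -0.72, edgeR adjusted p = 0.000203). In all 3 the groups were well apart.

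Smaller falls were those of COX7B (log2 -0.50), COX6A1 (-0.31) and COX7C (-0.21, edgeR adjusted p = 0.0482, a call that held in 7 of 14 alternatives). Pseudogenes of COX6A1 held counts equal to 30.5% of its own, the highest share among the 40 genes. COX4I1, the large nuclear subunit that takes part in the control of the enzyme by ATP, had 251 and 265 CPM against 211.5 and 232 CPM and just missed the threshold (edgeR adjusted p = 0.051). COX5A had 402 and 411 CPM with the control and 297 and 416 CPM with the CELF2 ASO, so that library 1 was low and library 2 was at the control level (edgeR adjusted p = 0.314). Over complex IV as a whole, 2 of 10 genes were lower in CELF2 ASO library 2 than in library 1, against 22 of all 40.

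COX6C and COX7A2, small membrane-spanning subunits of complex IV, were the 2 genes that rose; 27.5% of all genes tested did. COX6C had 25.5 and 26.6 CPM with the control and 35.2 and 32.0 CPM with the CELF2 ASO (log2 0.37, standard error 0.09, edgeR adjusted p = 0.0125). COX7A2 had 79.2 and 82.6 CPM against 92.5 and 110.5 CPM (log2 0.33, standard error 0.10, edgeR adjusted p = 0.0231). Neither call held in every alternative. Without control library 1 the adjusted p from edgeR was 0.183 for COX6C and 0.185 for COX7A2, without control library 2 it was 0.106 and 0.0957, and with offsets for GC content and transcript length it was 0.0598 and 0.0723. COX7A2L, a COX7A-related protein of respiratory supercomplexes, also rose, from 58.0 and 59.6 CPM to 82.7 and 105.3 CPM (log2 0.68, edgeR adjusted p = 0.00188).

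**Figure D2:**
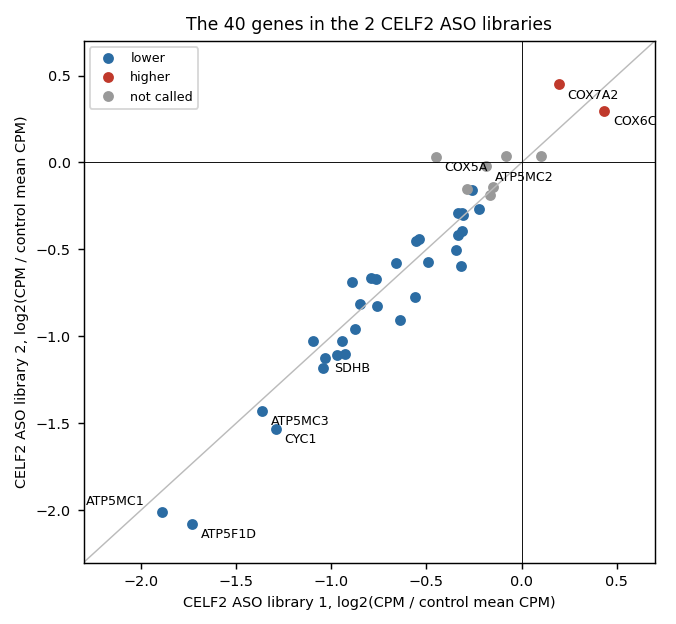
Log2 of CPM over the control mean for each of the 40 genes in CELF2 ASO library 1 (horizontal) and library 2 (vertical), coloured by call, with the diagonal marking equal values. Most genes lie near the diagonal below 0 on both axes, and COX5A is low in library 1 only.

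ATP synthase held the deepest falls: 14 of 16 genes were lower and none was higher, the median log2 fold change was -0.78 and the summed level 1.83-fold less. Of the 5 genes of the F1 head, which makes ATP, 4 were lower. ATP5F1B, the catalytic beta subunit, had 1406 and 1473 CPM with the control and 735 and 669.7 CPM with the CELF2 ASO (log2 -1.04, standard error 0.08, edgeR adjusted p = 4.34e-05). ATP5F1A, the alpha subunit, had 1063 and 1078 CPM against 727 and 627.5 CPM (log2 -0.66, edgeR adjusted p = 0.000601). ATP5F1C, the gamma subunit that turns inside the head, had 171 and 175 CPM against 119 and 127.5 CPM (log2 -0.49, edgeR adjusted p = 0.00105). All 3 were lower in both treated libraries than in either control.

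The remaining subunits of the head, delta and epsilon, sit side by side on the rotor. ATP5F1D (delta, ENSG00000099624, GRCh38 chromosome 19, 1241746 to 1244826, plus strand) had 317 and 344 CPM with the control and 99.6 and 78.2 CPM with the CELF2 ASO, 3.71-fold less (log2 -1.89, standard error 0.12, edgeR adjusted p = 1.94e-05). ATP5F1E (epsilon) had 106 and 118 CPM against 106 and 115 CPM, overlapping groups (edgeR adjusted p = 0.854), and 23.2% of its exon bases are shared with TUBB1 on the other strand. With GC and length offsets ATP5F1E was lower (log2 -0.22, edgeR adjusted p = 0.0397) and ATP5F1D had a log2 fold change of -1.45. Without such offsets, the log2 ratio of delta to epsilon CPM was 1.58 and 1.55 with the control and -0.09 and -0.55 with the CELF2 ASO; it compares counts and does not give the ratio of molecules.

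Subunit c is encoded by ATP5MC1, ATP5MC2 and ATP5MC3, which differ in the targeting sequence that leads the protein into mitochondria but give the same mature protein. ATP5MC1 (ENSG00000159199, GRCh38 chromosome 17, 48892765 to 48895871, plus strand) showed the largest fall of the 40 genes, from 243 and 249.6 CPM to 66.6 and 61.1 CPM (3.86-fold, log2 -1.95, standard error 0.08, edgeR adjusted p = 5.51e-06). ATP5MC3 (ENSG00000154518, chromosome 2, 175176258 to 175184607, minus strand) fell 2.63-fold, from 327 and 345.5 CPM to 130.5 and 125 CPM (edgeR adjusted p = 1.12e-05). ATP5MC2 (ENSG00000135390, chromosome 12, 53632726 to 53677408, minus strand) had 250.6 and 255 CPM against 222 and 249 CPM and was not called (log2 -0.10, standard error 0.08, edgeR adjusted p = 0.3165); the sign of this value turned under library totals alone (0.0097) and under GC and length offsets (0.0749). ATP5MC1 and ATP5MC3 were thus low in both CELF2 ASO libraries, while library 2 of ATP5MC2 was nearly at the control level.

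The share of ATP5MC2 in the summed CPM of the 3 genes was 30.5% and 30.0% with the control and 52.9% and 57.2% with the CELF2 ASO, and that of ATP5MC1 went from 29.6% and 29.4% to 15.9% and 14.0%. The log2 ratio of ATP5MC1 to ATP5MC2 was -0.04 and -0.03 with the control and -1.74 and -2.03 with the CELF2 ASO. For ATP5MC3 to ATP5MC2 it was 0.38 and 0.44 against -0.77 and -0.99. These ratios separated the groups, with p = 0.333 as the smallest value an exact permutation test over 2 against 2 libraries can give. The 3 genes together had 821 and 850.2 CPM with the control and 419 and 435 CPM with the CELF2 ASO, 1.96-fold less.

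**Figure D3:**
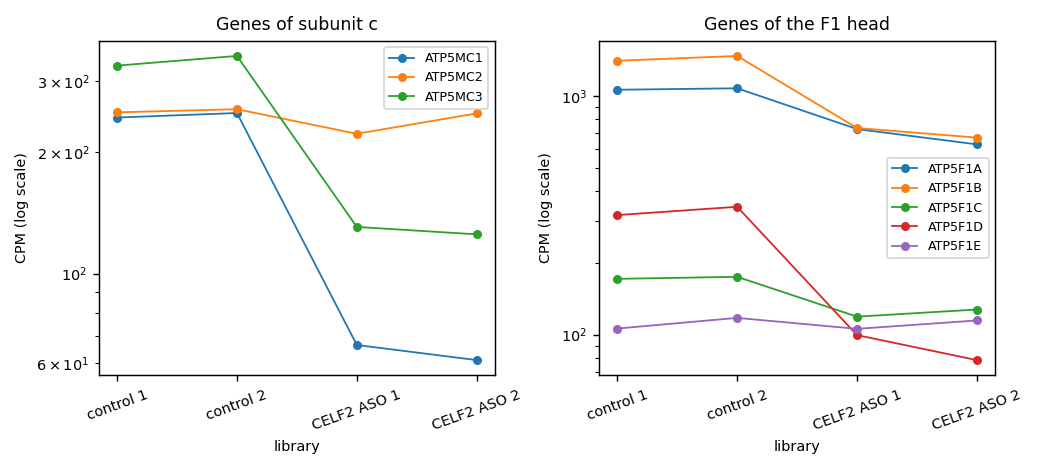
CPM on a log axis in each of the 4 libraries for the 3 genes of subunit c (left) and the 5 genes of the F1 head (right). ATP5MC2 and ATP5F1E stay near their control level, while ATP5MC1, ATP5MC3 and ATP5F1D drop in both CELF2 ASO libraries.

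All 4 genes of the peripheral stalk, which holds the head still against the turning ring, were lower. ATP5PD (subunit d) had 73.4 and 78.7 CPM with the control and 39.5 and 37.3 CPM with the CELF2 ASO (log2 -0.99, edgeR adjusted p = 5.17e-05). Of its exon bases, 19.1% are shared with KCTD2 and RN7SL573P on the other strand, and its pseudogenes held counts equal to 6.1% of its own. ATP5PF (coupling factor 6) had 64.2 and 65.9 CPM against 36.1 and 37.0 CPM (log2 -0.83), although 23.1% of its exon bases are shared with GABPA and JAM2 on the other strand. ATP5PB (subunit b) had 149 and 147 CPM against 95.1 and 79.1 CPM, and ATP5PO (OSCP, which joins stalk and head) had a log2 fold change of -0.62 with 25.4% of exon bases shared. The stalk genes together were 1.74-fold less.

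Of the small membrane subunits that shape the dimer of the enzyme, all 3 were lower. ATP5MF (subunit f) had 125 and 131 CPM against 75.6 and 72.2 CPM (log2 -0.79, edgeR adjusted p = 9.6e-05); it shares exon bases with the read-through gene ATP5MF-PTCD1. ATP5ME (subunit e) fell 2.08-fold but is uncertain, since 61.6% of its exon bases are shared with MYL5 on the other strand. ATP5MG (subunit g) had 35.2 and 38.8 CPM against 29.3 and 27.7 CPM (log2 -0.37, edgeR adjusted p = 0.011), with pseudogene counts equal to 12.8% of its own. ATP5IF1, the inhibitor that blocks reverse rotation when the membrane potential is lost, had 65.0 and 74.2 CPM against 55.7 and 46.1 CPM (log2 -0.45, edgeR adjusted p = 0.0109).

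Per kilobase of transcript, ATP5F1B had the highest level of the 40 genes with the control (783 CPM per kb) and UQCRH was next (494). With the CELF2 ASO they stood at 382 and 387 CPM per kb, nearly level. ATP5F1D went from rank 7 to rank 19 by this measure and ATP5MC1 from rank 4 to rank 14. Such levels rest on 1 annotated transcript per gene, whose length ran from 305 to 13566 bases.

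Transcripts of mitochondrial DNA gave the partner subunits of the same complexes. The 6 mitochondrial genes for subunits of complexes III and IV and ATP synthase summed to 17480 and 17100 CPM with the control and 19290 and 19070 CPM with the CELF2 ASO. The rise of this sum was not shared by all: 1 of the 6 was called higher and 3 lower, with a median log2 fold change of -0.08. Over all genes tested, 27.5% were higher and 27.9% lower. MT-CO1, the catalytic core of complex IV, rose from 5379 and 5278 CPM to 7725 and 8094 CPM (log2 0.57, edgeR adjusted p = 0.00055), a call that held in all 14 alternatives. MT-CO2, MT-ATP6 and MT-ATP8 were lower with log2 fold changes of -0.22, -0.21 and -0.31, but none of the 3 was called when library totals alone set the scale or when either control library was left out, and MT-CO2 and MT-ATP6 were not called with a filter of 1 CPM. MT-CYB (1856 and 1842 CPM against 2062 and 1824 CPM) and MT-CO3 (3743 and 3684 CPM against 4000 and 3665 CPM) were not called. In ATP synthase the median log2 fold change of -0.78 over its nuclear genes thus stood beside -0.21 for MT-ATP6 and -0.31 for MT-ATP8. A test of that difference was not made. The labels name both poly(A) selection and removal of ribosomal RNA, and how the ratio of mitochondrial to nuclear mRNA depends on that choice was not tested.

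**Figure D4:**
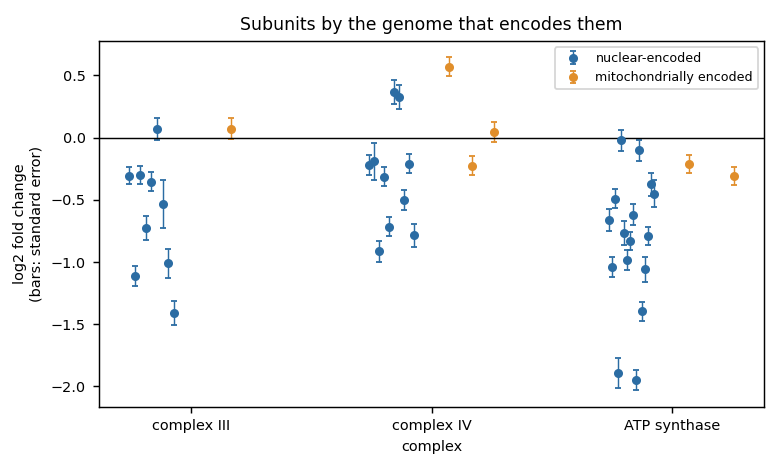
Log2 fold change with its standard error for each subunit gene of complexes III and IV and ATP synthase, nuclear-encoded in blue and mitochondrially encoded in orange. Nuclear genes reach down to -1.95, while the mitochondrial genes lie between -0.31 and 0.57.

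Complex I, the neighbouring entry point of electrons, had 29 of 37 nuclear subunit genes lower and 1 higher. Of protein-coding genes tested, 35.4% were lower and 28.0% higher. In complex I the median log2 fold change was -0.62. NDUFS6 (log2 -1.64), NDUFS5 (-1.31) and NDUFS3 (-1.55) had the smallest adjusted p-values among its lower genes, and NDUFS1, an iron-sulfur subunit, was the higher one (0.27, edgeR adjusted p = 0.021); with GC and length offsets its sign turned (log2 -0.05, edgeR adjusted p = 0.614), and no complex I gene was higher with these offsets, with no filter, with DESeq2 or without either control library. Of 12 further subunits and isoforms of complexes III to V and their associated proteins, 6 had enough counts for the test, 4 were lower and 1 higher. ATP5MK (log2 -0.85), NDUFA4 (-0.48) and UQCRHL (-0.51), a near-copy of UQCRH whose reads may be shared with it, had the smallest adjusted p-values. The isoforms COX4I2, COX6A2, COX6B2, COX7A1, COX7B2 and COX8C, several of them known from muscle, lung or testis, had too few counts to be tested.

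Assembly factors, which insert cofactors and join subunits without staying in the complex, were mixed: 17 of the 40 tested were lower and 6 higher, with a median log2 fold change of -0.19, where 35.4% of protein-coding genes were lower and 28.0% higher at a median of -0.05. COA4, a factor of complex IV, had 117 and 120.0 CPM with the control and 39.5 and 41.8 CPM with the CELF2 ASO (log2 -1.55, edgeR adjusted p = 8.11e-06). UQCC2, needed for making cytochrome b of complex III, fell 2.20-fold (edgeR adjusted p = 2.87e-05). HCCS, which attaches heme to cytochromes c and c1, had 69.0 and 74.7 CPM against 35.6 and 39.2 CPM (log2 -0.94). Among the higher ones, COA5 had a log2 fold change of 1.09, TTC19 of 0.77 and COX19 of 0.94, all at under 25 CPM.

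Of 9 tested transcriptional regulators of respiratory genes, nuclear or mitochondrial, 4 were lower and none was higher. Among protein-coding genes 35.4% were lower and 28.0% higher. PPARGC1B, a transcriptional coactivator, fell 2.51-fold, from 92.6 and 90.6 CPM to 39.4 and 33.6 CPM (log2 -1.33, edgeR adjusted p = 2.92e-05). Its relative PPRC1 had 229.7 and 210.5 CPM against 109 and 105.6 CPM (log2 -1.03). TFB2M, a transcription factor of mitochondrial DNA, had a log2 fold change of -0.84, and GABPB1, the partner of GABPA, one of -0.60. These 4 calls held in all 14 alternatives. NRF1 (29.6 and 28.1 CPM against 24.6 and 28.7 CPM), GABPA, YY1, ESRRA and TFAM were not called, but these results moved with the setting. With GC and length offsets YY1 (log2 -0.35) and TFAM (-0.33) were lower, and with library totals alone GABPA was higher (0.29). ESRRA was lower with no filter (-0.25). Without CELF2 ASO library 1 the log2 fold change was -0.42 for ESRRA and -0.21 for YY1. Without CELF2 ASO library 2 it was -0.25 for NRF1. Fits that leave 1 CELF2 ASO library take no spread from the treated group, so only their effect sizes are given.

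Across the 40 genes, a larger fall went with a higher GC content of the transcript (Spearman's rho -0.46, Pearson's r -0.54; the genes share the same 4 libraries, and the values are a description). Over the 12749 protein-coding genes with both values Spearman's rho was -0.23. Split by GC content into 4 groups of 10, the genes had median log2 fold changes of -0.26, -0.51, -0.81 and -0.92 from the lowest GC to the highest, beside 0.12, 0.06, -0.04 and -0.36 for protein-coding genes of the same GC ranges. Offsets fitted per library for GC content and transcript length brought Spearman's rho to -0.26 for the 40 genes and to -0.03 for protein-coding genes. The offsets were fitted on these same libraries, so the small value over protein-coding genes follows from the fit. A treatment difference tied to GC content or length would be removed with them. With these offsets 33 of the 40 genes were lower, with ATP5F1E, CYCS and SDHC added and SDHA lost, and none was higher, at a median log2 fold change of -0.61, where 32.4% of the 17699 genes with both values were lower. The median over protein-coding genes with the offsets was -0.11.

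**Figure D5:**
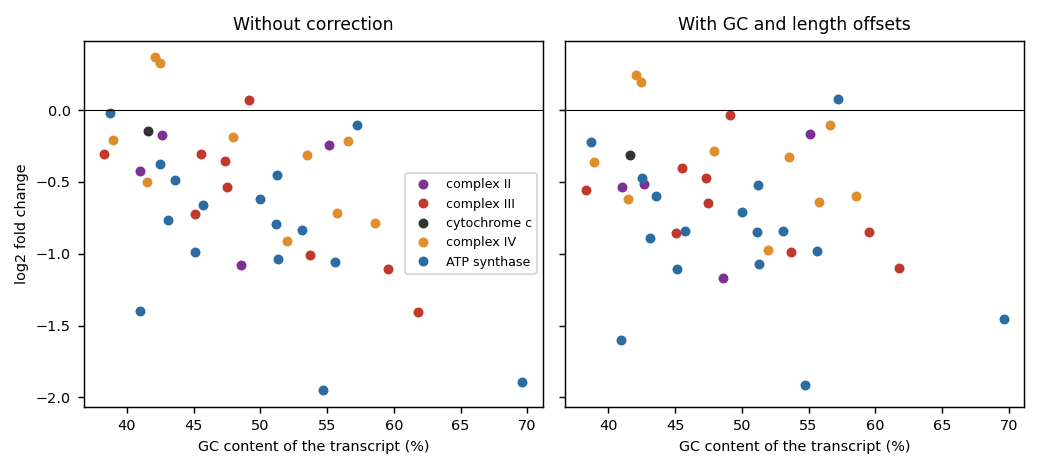
Log2 fold change of the 40 genes against the GC content of the transcript (percent), without correction (left) and with offsets for GC content and length (right), coloured by complex. ATP5F1D, at 69.6% GC, lies at -1.89 on the left and higher on the right, and most genes stay below 0 in both panels.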

How the data were processed

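RNA was sequenced from 4 RPMI 8226 libraries as 150-base paired reads, per the labels' protocols. The labels name both poly(A) selection and removal of ribosomal RNA. The authors deposited whole-number read counts per Ensembl gene. The submitters' processing notes name STAR 2.7.11b, featureCounts 2.0.8, Salmon 1.10.0 and GRCh38. How strand and multi-mapping reads were handled is not given in the sources used here.

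Of 79029 rows, 97 named no gene (1 to 3 counts per library) and were left out. Symbols matched 61481 gene IDs. Counts were tested in R 4.3.3 with edgeR 4.0.16: filterByExpr (minimum count 10, total 15), TMM scaling, and the robust two-sided quasi-likelihood test with no covariate over all 19511 genes, Benjamini-Hochberg adjusted at 0.05. The standard error is the log2 fold change over the square root of F. Positions, GC content and length came from GENCODE 29 (principal transcript). The method was tested on simulated data. Alternatives also used limma 3.58.1 and DESeq2 1.42.0.

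The 40 genes and the other lists were chosen with earlier results of these data known. Any of the 40 could be named, as could mitochondrial and regulator genes and CELF2; other lists gave at most the 3 smallest adjusted p-values in each direction. Cell type markers LYZ, FCGR3A, IGLC2, EPCAM and KRT18 were named after their values were seen.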

Additional observations from a re-analysis of the deposited data

How the results depend on the processing

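Under 14 alternatives, 22 of the 31 lower calls held in every one, among them SDHB, UQCRC1, CYC1, COX5B, ATP5F1B, ATP5F1D, ATP5MC1 and ATP5MC3, and neither higher call did. The number of the 40 genes lower was 32 with RLE scaling, 23 with library totals alone (which moved the median of all genes from 0.04 to 0.16), 33 with no filter, 28 with a filter of 1 CPM, 28 with DESeq2, 32 with limma-voom, 31 with rows summed per symbol and 33 with GC and length offsets. It was 29 for the same genes without offsets, an alternative added after the data were seen. Leaving out 1 library gave 22 to 35 lower and 0 to 2 higher. Without control library 2, ATP5IF1, ATP5MG, COX6A1, COX6C, COX7A2, COX7C, SDHA, UQCR10, UQCRB, UQCRC2 and UQCRH lost their call; without control library 1, COX6C, COX7A2, COX7C, SDHA, UQCR10, UQCRB and UQCRC2 did. With 1 library left out, the spread came from the pair of the other group alone. The control pair differed less than the CELF2 ASO pair (biological coefficient of variation 3.65% against 13.7%). Leaving out a CELF2 ASO library thus set the treated spread aside and made calls easier to keep or gain. Without CELF2 ASO library 2 the log2 fold change was -0.304 for COX4I1, -0.47 for COX5A and -0.183 for SDHC. Without CELF2 ASO library 1 it was -0.144 for COX4I1 and -0.18 for SDHC. The number higher was 0 with GC and length offsets and 1 with DESeq2. GC and length offsets added lower calls for ATP5F1E (-0.223), CYCS (-0.31) and SDHC (-0.515) and lost SDHA; DESeq2 and the filter of 1 CPM lost COX7C, SDHA and UQCR10. Genes called in all ranged from 8602 to 12189.

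The library numbers are not stated to pair libraries, and the correlation of same-numbered deviations was 0.05. With the replicate block, 28 of the 40 genes were lower and 2 higher, and 10807 genes were called in all; COX7C, SDHA and UQCR10 lost their call, as did MT-CO2 and MT-ATP6. Among the 40 genes, signs turned only in genes not called without the alternative. ATP5F1E had log2 fold changes of 0.0927 (library totals alone), 0.0312 (filter of 1 CPM) and 0.0086 (the same genes without offsets), and -0.122 to 0.0451 with 1 library left out. ATP5MC2 had 0.0097 (library totals alone) and 0.0749 (GC and length offsets). UQCRQ had -0.0326 with offsets and -0.0506 (without control library 1) to 0.142 (without control library 2), and COX5A had -0.47 (without CELF2 ASO library 2) to 0.0396 (without CELF2 ASO library 1). The cause was not tested. The lists of other genes moved as well: assembly factors lower ranged from 11 to 19, and the mitochondrial genes lower from 0 to 3. COX7C, SDHA and UQCR10 each held in 7 of the 14 alternatives.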
